A study of Oryza sativa with 24 samples.

Results

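Scutella of the rice line 35Spro:OsMIR393b after 7 d on callus-inducing medium (CIM) were compared with scutella of the same line after 2 d on N6 medium. The groups were taken from the labels of the libraries, and together they held 6 of the 24 libraries, 3 in each group. In this line the microRNA gene OsMIR393b is driven by the 35S promoter, a viral promoter active in most plant tissues, in the Nipponbare background. All 6 libraries carried the transgene, and they came from a single line. CIM was N6 basal medium with 10 µM of the synthetic auxin 2,4-dichlorophenoxyacetic acid (2,4-D), and N6 medium had no added auxin. Each sample was a pool of scutella from 10 seeds, which the labels call mature embryo. Because N6 scutella were taken at 2 d only, the effects of the medium and of the longer culture cannot be told apart. The same line after 2 d and 5 d on CIM, and wild-type Nipponbare after 7 d on CIM and 2 d on N6, were used to place the values, with 3 libraries in each group.

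miR393 directs the cleavage of transcripts of the TIR1/AFB F-box proteins, which are auxin receptors. When auxin binds these receptors, Aux/IAA repressors are degraded and auxin response factors (ARFs) are free to act on their target genes. The scutellum is the shield-shaped cotyledon of the grass embryo. In germination it secretes enzymes that break down the endosperm and takes up the products, and in rice it is the tissue from which auxin induces embryogenic callus. The study describes callus formation as lost in this line, so the comparison shows which transcripts of the scutellum changed on auxin medium where callus did not form. The study also reports that the scutellum epidermis of the line still divided on CIM, without going on to an embryo-like structure.

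The 3 CIM libraries held 67987006 to 70426256 counts and the 3 N6 libraries 62487300 to 69957571 counts, in an annotation of 38866 genes. Levels are given as CPM, the counts of a gene relative to the library total, scaled by edgeR's trimmed mean of M-values (TMM). Libraries correlated at 0.9696 to 0.9840 within the CIM group, at 0.9866 to 0.9879 within the N6 group, and at 0.9073 to 0.9255 between the groups (Pearson's r across genes on the log scale, which are not independent replicates). The 10 genes with the most counts took 18.0 to 18.4% of all counts in the CIM libraries, against 7.62 to 8.44% in the N6 libraries, and the TMM factors were 0.769 to 0.870, against 0.944 to 0.985. CIM replicate 2 stood apart from the other CIM libraries in genes of DNA replication and in genes named below, and results that rest on it are given with and without it. The replicates are separate samples. The edgeR p-values weigh a change between groups against the spread between replicates. In the main fit this spread was estimated over all 24 libraries in 8 groups, not from the compared groups alone.

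The level of the auxin receptors served as a check of the labels. OsTIR1 had 22.7, 29.5 and 28.4 CPM in the CIM libraries, against 27.5, 24.2 and 26.2 CPM in the N6 libraries, and the groups overlapped (log2 fold change 0.05, SE 0.11, edgeR adjusted p = 0.76). OsAFB2 had 69.1, 75.4 and 77.9 CPM on CIM, against 90.5, 79.1 and 77.1 CPM on N6 (log2 fold change -0.15, SE 0.10, edgeR adjusted p = 0.21). The line's libraries did not reach the wild-type range for either receptor, and in wild-type scutella OsTIR1 averaged 97.0 CPM on CIM and 110 CPM on N6 and OsAFB2 averaged 148 and 142 CPM. With TMM, neither receptor transcript passed the test between CIM and N6 in the line. OsAFB2 passed it with library totals in place of TMM (log2 fold change -0.40, edgeR adjusted p = 0.0031). It also passed with limma on log2(FPKM + 0.1) (log2 fold change -0.40, limma adjusted p = 0.0022). Both changes were under 2-fold.

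Of 29710 genes tested, 2972 were called higher on CIM (10%) and 3705 lower (12.5%), where a gene was called if its level moved more than 2-fold and edgeR's quasi-likelihood test passed 0.05 after Benjamini-Hochberg adjustment. The balance of the directions depended on the scaling. With library totals in place of TMM, the median over all genes moved by -0.25 on the log2 scale, and 2104 genes were higher and 4993 lower, so that 29.6% of calls were higher instead of 44.5%. The 2972 higher genes took 34.2 to 36.4% of all counts in the CIM libraries, against 11.2 to 12.8% in the N6 libraries. The 3705 lower genes took 3.17 to 3.96% of counts on CIM, against 14.2 to 15.1% on N6. In bulk tissue, fewer cells of a type and less RNA per cell cannot be told apart.

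**Figure D1:**
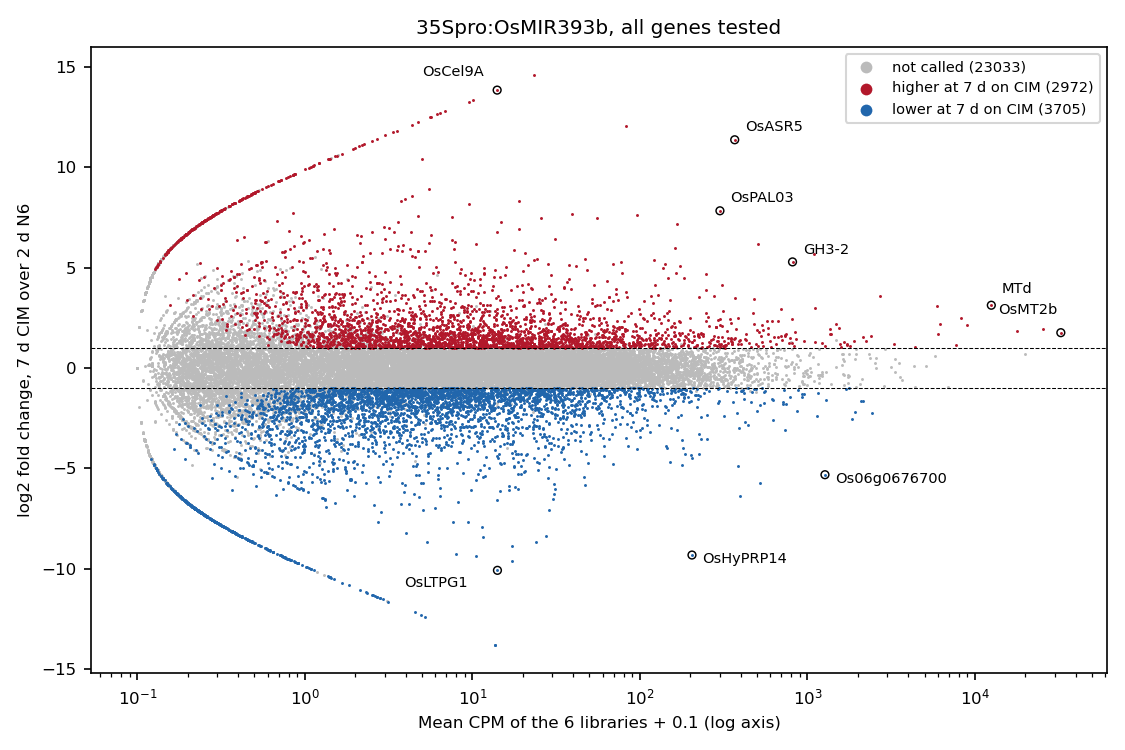
Log2 fold change of every gene tested (7 d on CIM over 2 d on N6, fitted by edgeR) against its mean CPM in the 6 libraries plus 0.1 on a log axis, with 2972 genes higher on CIM in red, 3705 lower in blue, 23033 not called in grey and dashed lines at log2 fold changes of 1 and -1. Named genes are circled, and the metallothioneins OsMT2b and MTd lie at the right edge among the most counted genes.

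Much of the gain in counts on CIM lay in a small set of genes, and metallothioneins, small cysteine-rich proteins that bind metal ions, came first. OsMT2b (chromosome 5, 605868 to 606764 of IRGSP-1.0) had 53161, 48629 and 48886 CPM on CIM, against 14287, 16086 and 14265 CPM on N6 (log2 fold change 1.76, SE 0.30, edgeR adjusted p = 9.4e-05). OsMT3a had 43024, 37796 and 40702 CPM on CIM, against 10306, 11166 and 10238 CPM on N6 (log2 fold change 1.94, SE 0.34). Every CIM library lay above every N6 library for both genes, as for 26.6% of all genes tested. The choice by largest gain required this, so nothing is read from it. Of 14 metallothionein genes tested, 9 were higher and 2 lower, with a median log2 fold change of 1.55 beside -0.02 over all genes tested. MTd averaged 22462 CPM on CIM and 2579 CPM on N6, and OsMT2c averaged 4985 and 414 CPM. OsMT4, a member known for its expression in seeds, went the other way, with means of 24.7 CPM on CIM and 82.6 CPM on N6. Metallothionein genes together took 10.3 to 10.6% of all counts on CIM, against 2.90 to 3.15% on N6. In wild-type scutella the same genes took 0.378 to 0.738% of counts on CIM and 1.55 to 1.74% on N6. Reads of near-identical members may have been split or shared in the counting, so single members are less certain than their sum.

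Other transcripts with many counts rose with them. Os07g0683900 and Os07g0684000, neighbouring genes with a ricin B-type carbohydrate-binding domain, averaged 27712 ± 4048 and 14646 ± 1574 CPM on CIM, against 7812 ± 1713 and 3274 ± 550 CPM on N6 (SD, n = 3 each). OsLEA24, a late embryogenesis abundant (LEA) protein, averaged 14040 ± 1690 CPM on CIM and 2511 ± 225 CPM on N6 (log2 fold change 2.48, SE 0.40, edgeR adjusted p = 5.1e-05). The h-type thioredoxin TRXH, a disulfide reductase, had 12040, 9419 and 10325 CPM on CIM, against 914, 1608 and 1236 CPM on N6. These genes were chosen among those whose groups do not overlap, as was the case for 26.6% of all genes tested in the higher direction, so nothing is read from it here. GLYI-11, a glyoxalase I that detoxifies methylglyoxal, averaged 9165 and 2800 CPM, and the ascorbate peroxidase OsAPX1, which removes hydrogen peroxide, averaged 5898 and 2853 CPM. The alpha-amylase AMY1A, a starch-degrading enzyme secreted by the scutellum, had the most counts of all genes on N6. It reached 20076, 26401 and 27602 CPM on CIM, against 14640, 16061 and 14410 CPM on N6, and the test did not pass (edgeR adjusted p = 0.24).

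**Figure D2:**
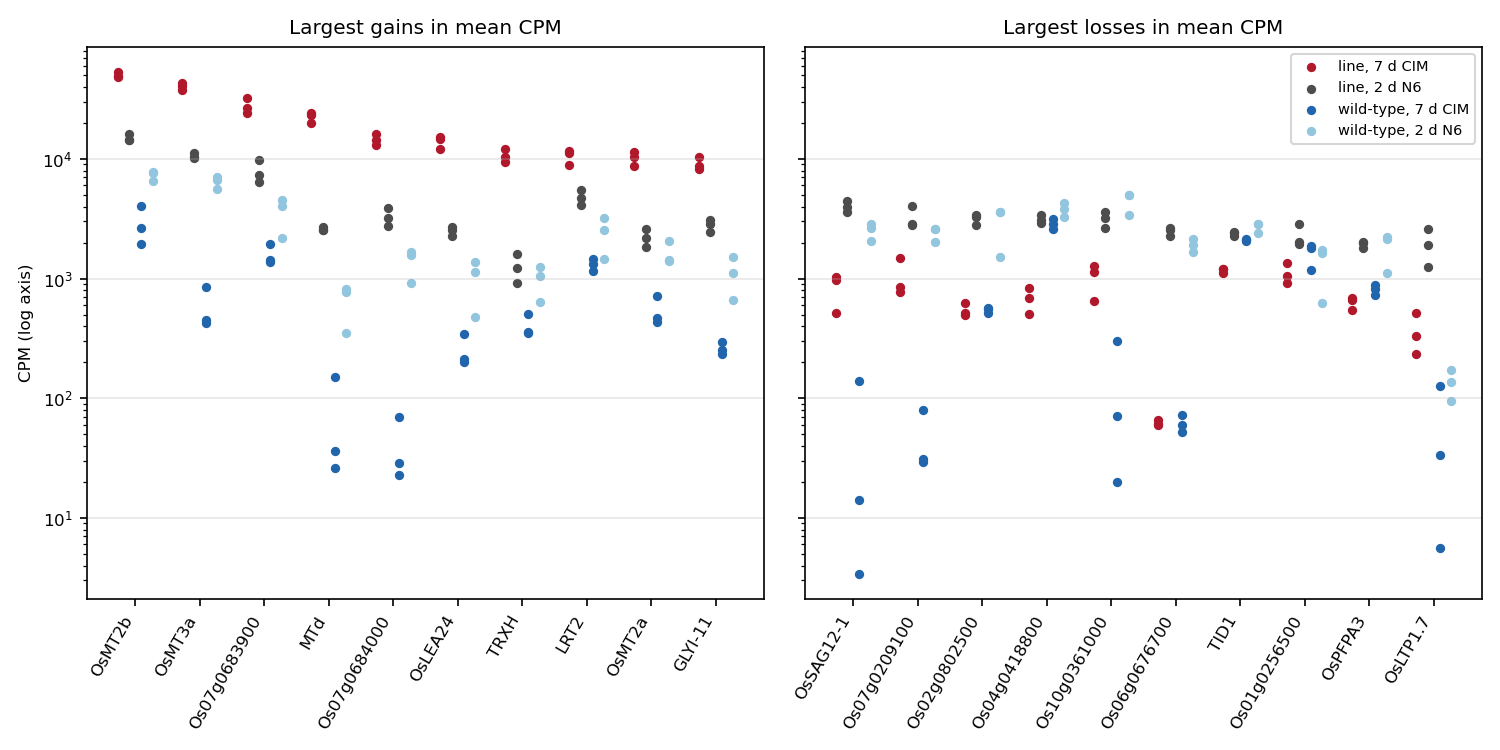
CPM (log axis) of each library for the 10 genes with the largest gain in mean CPM (left) and the 10 with the largest loss (right), among called genes whose groups do not overlap; red, line at 7 d on CIM; grey, line at 2 d on N6; dark blue, wild-type at 7 d on CIM; light blue, wild-type at 2 d on N6. OsMT3a lies near 40507 CPM in the line on CIM and near 577 CPM in wild-type on CIM.

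Another group of genes was at or near 0 on N6 and clearly present on CIM. OsASR5, an abscisic acid, stress and ripening protein (chromosome 11, 3278451 to 3279419), had 727, 655 and 825 CPM on CIM, against 0, 0.576 and 0.244 CPM on N6. Os12g0515800, a conserved gene of no stated function, had 155, 184 and 154 CPM on CIM, against 0, 0 and 0.114 CPM on N6. OsPAL03, a phenylalanine ammonia-lyase, the first enzyme of phenylpropanoid synthesis, had 563, 332 and 899 CPM on CIM, against 0.416, 2.70 and 4.78 CPM on N6 (log2 fold change 7.83, SE 1.47, edgeR adjusted p = 0.00026). In wild-type scutella on CIM these genes had means of 0.279, 0.105 and 0.908 CPM. Of genes with no count in any N6 library, Os04g0552000, which encodes a barwin-related domain, had 41.9, 29.1 and 67.8 CPM on CIM, at least 244-fold higher than a floor of 12 counts (3 fragments) per library. OsCel9A, a cellulase-like endoglucanase, had 26.5, 14.1 and 43.1 CPM, at least 147-fold higher, and OsGSTF12, a glutathione S-transferase, had 22.6, 14.7 and 22.9 CPM, at least 106-fold higher. These were present in all 3 CIM libraries. By contrast, DEFL12, Os06g0611300 and Os04g0173800 owed their place among the highest folds mostly to CIM replicate 2, where they had 37.5, 34.8 and 35.6 CPM, against at most 2.63 CPM in the other CIM libraries. Without that library Os04g0173800, annotated as a lectin precursor, was no longer called (edgeR adjusted p = 0.12).

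Several auxin-responsive genes were higher on CIM in this line, unevenly between families. GH3-2, an enzyme that joins auxin to amino acids and so removes the free hormone, had 1593, 1390 and 1782 CPM on CIM, against 32.3, 55.8 and 34.4 CPM on N6 (log2 fold change 5.28, SE 0.26, edgeR adjusted p = 2.3e-10). GH3-8, another enzyme of this kind, averaged 336 CPM on CIM and 111 CPM on N6. JAR1, a member of the same family that joins jasmonate to isoleucine, was lower, at 12.6, 12.6 and 21.4 CPM on CIM, against 56.3, 70.5 and 71.3 CPM on N6. Of 11 GH3 genes tested, 3 were higher and 3 lower.

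Of 30 Aux/IAA genes tested, which encode the repressors of the auxin response and are themselves induced by auxin, 13 were higher and 2 lower (5 lower without CIM replicate 2), with a median log2 fold change of 0.90. OsIAA10 had 52.1, 62.2 and 56.1 CPM on CIM, against 4.94, 6.16 and 4.50 CPM on N6 (log2 fold change 3.45, SE 0.15, edgeR adjusted p = 8.7e-11). OsIAA9 averaged 11.1 and 0.718 CPM, and OsIAA1 averaged 113 and 38.2 CPM. OsIAA17, one of the most counted members, had 65.4, 93.5 and 79.6 CPM on CIM and 94.1, 86.5 and 93.0 CPM on N6 and was not called. In wild-type scutella 19 of the 30 Aux/IAA genes were higher and 2 lower, where 14.2% and 14.7% of all genes tested were. The CIM-over-N6 change was called more negative in the line for 11 and more positive for 2 (16.1% and 15.5% of all genes tested).

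Few ARFs, which bind auxin-responsive promoters, were called higher. Of 26 tested, 1 was higher and 5 lower, and the median was -0.27. OsARF19 was the higher one, at 11.1, 25.2 and 18.9 CPM on CIM, against 7.34, 7.48 and 10.5 CPM on N6, a call that was lost with library totals and without CIM replicate 2. OsARF9 had 10.8, 24.6 and 15.2 CPM on CIM, against 68.5, 55.8 and 59.8 CPM on N6, and OsARF2 averaged 14.7 and 38.7 CPM. In wild-type, 13 of the 26 ARF genes were higher, and the change was called more negative in the line for 16. Of 40 SAUR genes, short-lived proteins of rapid auxin responses, 5 were higher (3 without N6 replicate 1 or N6 replicate 3) and 15 lower. Of 21 LBD genes, a transcription factor family that includes the crown-root regulator CRL1, 6 were higher and 1 lower (2 lower without CIM replicate 2, CIM replicate 3 or N6 replicate 3). Os07g0589000 had 43.7, 46 and 45.4 CPM on CIM, against 5.87, 7.19 and 5.15 CPM on N6. Among 20 auxin carriers, the gene named PIN1A in the annotation (Os02g0743400) rose to 31.3, 107 and 53.7 CPM, against 18.1, 15.6 and 16.7 CPM on N6, and OsPIN1d fell to 0, 0.973 and 1.10 CPM, against 6.78, 5.83 and 5.96 CPM. The gene that the study calls OsPIN1a (Os06g0232300) was not called (log2 fold change 0.91, edgeR adjusted p = 0.22).

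Of 29 genes of cytokinin response and metabolism, 12 were higher and 3 lower, with a median log2 fold change of 0.91. With only the compared groups in the fit 7 were higher, with limma 6, and leaving out each library gave 8 to 11. Some of the 12 lay near the floor of 12 counts. OsCKX1, OsIPT8 and LOGL3 averaged 0.190, 0.119 and 0.365 CPM on CIM, with no count on N6. LOG1, which releases active cytokinin, had 28.4, 31.1 and 28.5 CPM on CIM, against 4.86, 6 and 7.98 CPM on N6 (log2 fold change 2.22, SE 0.19, edgeR adjusted p = 7.4e-08). RR24, a type-B response regulator, averaged 31.6 and 12.8 CPM. The cytokinin oxidases, which degrade the hormone, went both ways. Gn1a averaged 4.08 CPM on CIM and 0.668 CPM on N6, and OsCKX3 averaged 7.29 CPM on CIM and 49.5 CPM on N6.

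Of 80 NAC genes, a family of transcription factors with many members active in stress and senescence, 25 were higher and 5 lower, or 8 lower without CIM replicate 3 (median log2 fold change 0.71). OMTN3 had 244, 172 and 229 CPM on CIM, against 15.5, 19.6 and 34.5 CPM on N6 (log2 fold change 3.21, SE 0.29, edgeR adjusted p = 9.5e-08). SAPK3, a kinase of the SnRK2 family that acts in osmotic stress, had 201, 147 and 175 CPM, against 20.6, 24.0 and 23.3 CPM. The lowest CIM library was several times the highest N6 library for both genes. Among 23 genes of abscisic acid synthesis and signaling, 3 were higher and 3 lower. At 13% in each direction, this was near the 10% and 12.5% of all genes tested. SAPK3 and SAPK9 were among the higher ones, and nothing is read about the list from them. Of 31 senescence-associated genes, 6 were higher and 4 lower, with 2 lower without CIM replicate 2, CIM replicate 3 or N6 replicate 3. Their summed level was nevertheless lower, at 2529, 1838 and 2455 CPM on CIM, against 5407, 5907 and 4970 CPM on N6. Most of that loss lay in OsSAG12-1, given below, and not in the list as a whole. OsStr7, annotated as similar to the senescence-associated protein DIN1, averaged 153 and 13.2 CPM. SGR and OsPAO, which act in the breakdown of chlorophyll, averaged 9.19 and 18.7 CPM on CIM, against 1.71 and 7.61 CPM on N6. OsSAG12-1, a cysteine protease, had 1024, 520 and 975 CPM on CIM, against 3980, 4441 and 3574 CPM on N6, but its call was lost when any of the 6 libraries was left out.

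Of 32 autophagy genes, 7 were higher and none lower on CIM by edgeR, at an unadjusted p under 0.05 or by DESeq2 (median log2 fold change 0.63). With library totals 4 were higher and 1 lower, with limma 3 and 1, and with no minimum fold 22 and 1. Without CIM replicate 2, 1 was lower. OsATG8b, a ubiquitin-like protein of the autophagosome membrane, had 59.4, 50.6 and 58.1 CPM on CIM, against 20.4, 21.9 and 18.7 CPM on N6 (log2 fold change 1.46, SE 0.16, edgeR adjusted p = 1.2e-06). OsATG12 averaged 21.8 and 8.33 CPM. Of cysteine proteinases (6 of 29 higher, 4 lower) and proteinase inhibitors (11 of 34 higher, 5 lower), 20.7% and 32.4% were higher, beside 10% of all genes tested. Their lower shares, 13.8% and 14.7%, were near the 12.5% of all genes tested. Leaving out each library gave 4 to 5 higher and 3 to 5 lower cysteine proteinases. Os09g0442300, an oryzain gamma-like cysteine proteinase, had 311, 260 and 288 CPM on CIM, against 47.2, 58.3 and 64.6 CPM on N6, and the vacuolar processing enzyme OsVPE2 averaged 230 and 60.6 CPM. Oc2, a cystatin, which inhibits cysteine proteinases, had 407, 428 and 411 CPM on CIM, against 25.9, 38.8 and 43 CPM on N6 (log2 fold change 3.53, SE 0.38, edgeR adjusted p = 6.4e-07). Oc1, the most counted cystatin, averaged 3197 and 1258 CPM, whereas the cystatin-domain gene Os04g0350100 averaged 252 CPM on CIM and 851 CPM on N6.

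Heat shock and detoxification genes were mixed. Of 84 heat shock protein genes, 18 were higher and 5 lower, but with library totals 14 were higher and 13 lower, and without CIM replicate 2 there were 8 lower ones. The small heat shock protein gene Os10g0159600 had 370, 228 and 203 CPM on CIM, against 9.48, 6.53 and 9.05 CPM on N6. The cytosolic chaperone HSP70 (Os11g0703900) had 2825, 3782 and 2686 CPM on CIM and 3932, 3496 and 3383 CPM on N6 and was not called. Of 71 glutathione S-transferases, 9 were higher and 18 lower. OsGSTU42 averaged 511 and 42.2 CPM, and OsGSTU4 averaged 15.3 CPM on CIM and 105 CPM on N6. Among 36 aquaporins, 8 were higher and 7 lower. The silicon channel gene LSI1 had 129, 133 and 140 CPM on CIM, against 9.17, 12.8 and 9.39 CPM on N6, while the tonoplast aquaporin OsTIP2 (Os06g0336200) averaged 226 and 813 CPM.

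Genes of sugar handling also divided, with 14 of 62 higher and 9 lower. SUS4, a sucrose synthase, had 533, 495 and 467 CPM on CIM, against 110, 147 and 94.6 CPM on N6 (log2 fold change 2.09, SE 0.14, edgeR adjusted p = 4.9e-09). The cell wall invertase OSCIN1 averaged 22.8 and 90.6 CPM, and TMT2, a vacuolar sugar transporter, averaged 340 and 1090 CPM. The monosaccharide transporter-like gene Os04g0454200 had 11.2, 9.01 and 13.0 CPM on CIM and no count on N6, at least 58.4-fold higher. SUS4 was higher and OSCIN1 and TMT2 were lower in every CIM library than in any N6 library. Of all genes tested, 26.6% were so separated in the higher and 28.5% in the lower direction.

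**Figure D3:**
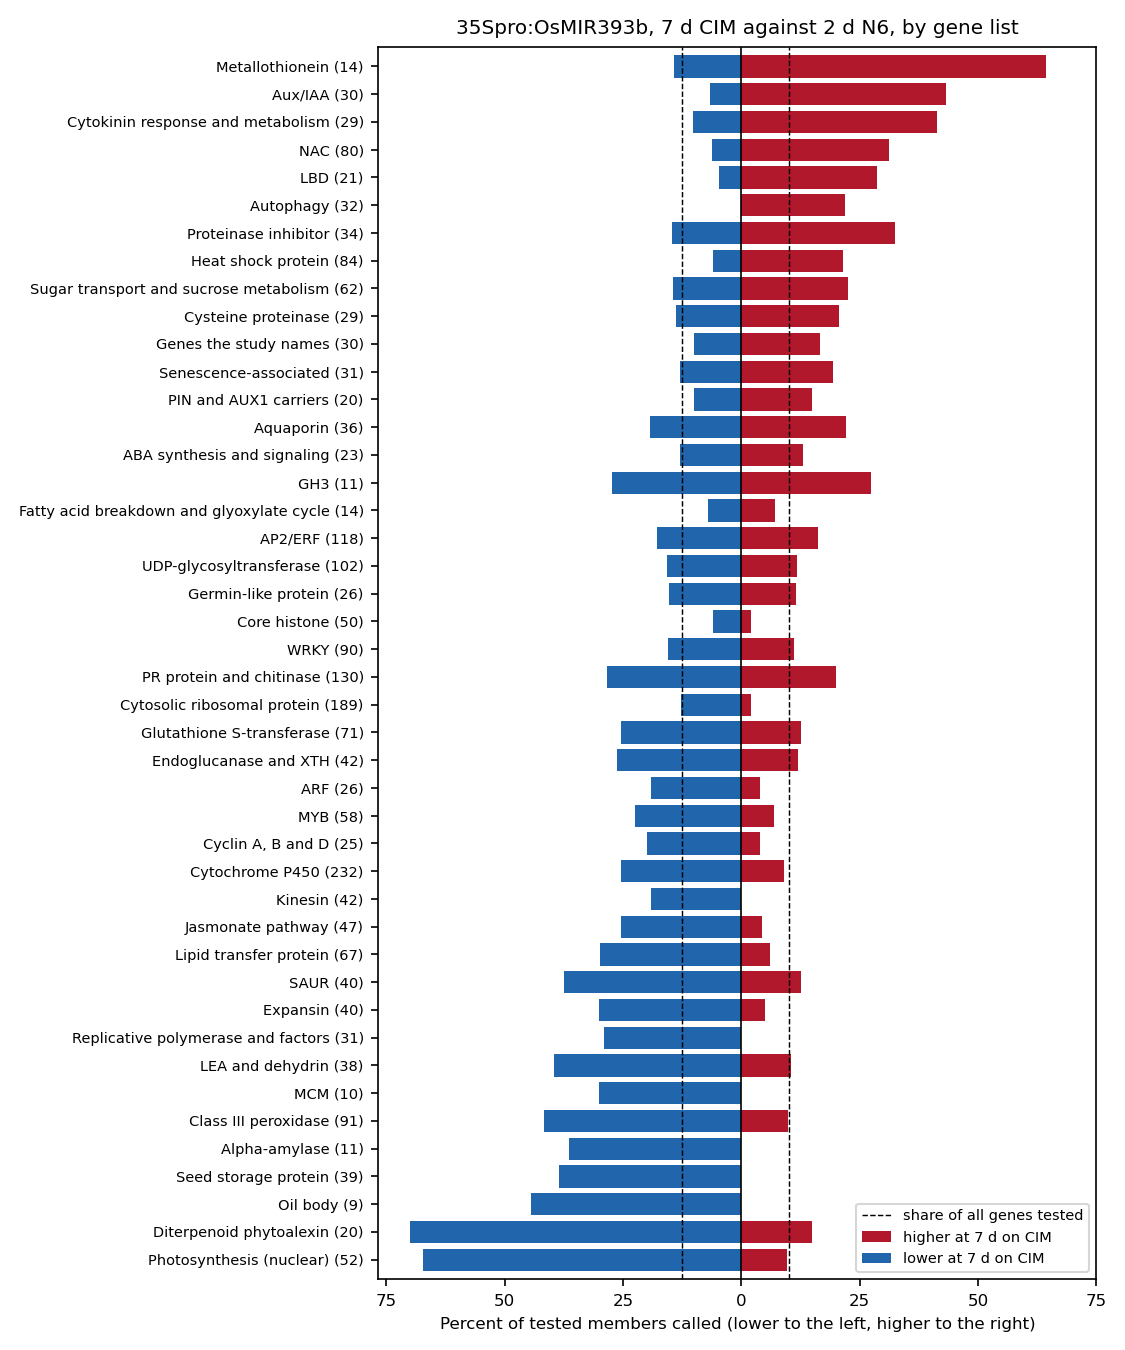
Percent of the tested members of each gene list called higher (red, to the right) or lower (blue, to the left) at 7 d on CIM against 2 d on N6 in the line, with the number tested in parentheses and dashed lines at the 10% and 12.5% of all genes tested. Metallothionein, Aux/IAA and cytokinin genes stand at the higher end, and photosynthesis, diterpenoid and oil body genes at the lower end.

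Single genes of reserve breakdown lost most of their level, while the lists were divided. Os06g0676700, similar to a high pI alpha-glucosidase, which releases glucose from starch breakdown products (chromosome 6, 28100801 to 28105862), had 60.2, 60.7 and 65.2 CPM on CIM, against 2623, 2276 and 2549 CPM on N6 (log2 fold change -5.32, SE 0.27, edgeR adjusted p = 2.3e-10). Of 11 alpha-amylase genes, 4 were lower (2 without CIM replicate 3 or N6 replicate 1) and none higher by edgeR, at an unadjusted p under 0.05, by DESeq2 or by limma, while their summed level was 24680 to 32535 CPM on CIM and 19416 to 22578 CPM on N6, and AMY1A made up most of it. The amylase gene Os08g0473600 had 137, 245 and 153 CPM on CIM, against 1468, 965 and 755 CPM on N6, and its neighbour Os08g0473900 had 0, 1.22 and 0 CPM, against 76.8, 77.7 and 15.7 CPM. The call of Os08g0473600 was lost without CIM replicate 1, CIM replicate 3 or N6 replicate 1. The genes share a name in the annotation, and their reads may have been split between them. The 14 genes of fatty acid breakdown and the glyoxylate cycle, the route from stored oil to sugar, gave 1 higher and 1 lower. Without CIM replicate 2, CIM replicate 3, N6 replicate 1 or N6 replicate 3 none of these was lower, and without CIM replicate 2 or N6 replicate 2 there were 2 higher ones.

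Photosynthesis genes fell widely: of 52 nuclear genes tested, 35 were lower and 5 higher, with a median log2 fold change of -3.07. CAB1R, a chlorophyll a/b-binding protein, had 14, 3.61 and 4.98 CPM on CIM, against 122, 96.1 and 123 CPM on N6 (log2 fold change -3.92, SE 0.70, edgeR adjusted p = 0.00015). LHCB averaged 0.479 and 32.3 CPM, and RbcS1, a Rubisco small subunit, averaged 52.6 and 283 CPM. The summed level of the list was 174 to 236 CPM on CIM, against 837 to 1167 CPM on N6 in the line, and 55.3 to 63.5 CPM on CIM against 281 to 374 CPM on N6 in wild-type. These genes mark green tissue, and whether shoot tissue in the N6 samples had a part in the difference was not tested. Genes that mark roots (RCc family, 4 tested, 2 lower) summed to 41.8 to 45.3 CPM on CIM and 44.2 to 93.1 CPM on N6. In this family 1 gene was lower without CIM replicate 3 or N6 replicate 1, with the replicate block, with only the compared groups in the fit and with limma.

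Some transcripts of stored protein and oil were lower on CIM. Of 39 seed storage protein genes, 15 were lower and none higher by edgeR, at an unadjusted p under 0.05, by DESeq2 or by limma, and their summed level was 256 to 312 CPM on CIM, against 686 to 805 CPM on N6. Prol-01, a 10 kDa prolamin, had 93.6, 54.7 and 95.9 CPM on CIM, against 430, 437 and 389 CPM on N6, and made up most of the loss in the sum. The count rested on the CIM libraries, since 6 of the 39 were lower without CIM replicate 1 and 6 without CIM replicate 3. With no minimum fold 1 of the 39 was higher. Glutelins and prolamins are made in the endosperm of the developing seed, and whether carried-over endosperm RNA had a part in the difference was not tested. Of 9 oil body genes, 4 were lower. OLE16, an oleosin, which coats oil bodies, had 0.886, 2.1 and 1.55 CPM on CIM, against 14.7, 11.6 and 9.17 CPM on N6 (log2 fold change -2.96, SE 0.71, edgeR adjusted p = 0.0021).

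LEA and dehydrin genes, known from drying seeds and stressed tissue, fell in number but not in sum. Of 38 tested, 15 were lower and 4 higher, with a median log2 fold change of -1.56. The 4 higher ones included OsLEA24, LEA8, with 456, 377 and 429 CPM on CIM against 90.5, 111 and 90.7 CPM on N6, and OsLEA9, with 198, 155 and 185 CPM against 29.3, 41.9 and 26.6 CPM. OsLEA25, annotated as a RAB-17 dehydrin, had 0.406, 2.67 and 1.38 CPM on CIM, against 20.6, 31.5 and 13.4 CPM on N6. OsLEA24 made up most of the summed level, which was 13704 to 16883 CPM on CIM, against 3457 to 4480 CPM on N6.

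Several lists of cell wall and surface proteins had more lower than higher members, as did all genes tested (12.5% lower, 10% higher). The lower shares were 30% for expansins, 29.9% for lipid transfer proteins, 41.8% for class III peroxidases and 26.2% for endoglucanases and xyloglucan-modifying enzymes. The higher shares were 5%, 5.97%, 9.89% and 11.9% in that order, the last 2 near the share of all genes tested. OsHyPRP14, a hybrid proline-rich protein (chromosome 10, 21662454 to 21663219), had 0.904, 0.0671 and 0.957 CPM on CIM, against 318, 403 and 504 CPM on N6 (log2 fold change -9.32, SE 1.28, edgeR adjusted p = 1.0e-05). Of 40 expansins, proteins that loosen cell walls, 12 were lower and 2 higher (4 without N6 replicate 2). OsEXP4 had 18.1, 8.44 and 29.5 CPM on CIM, against 359, 382 and 408 CPM on N6, and the expansin OsEXPA29 had no count on CIM, against 8.34, 4.50 and 5.41 CPM on N6, at least 28.4-fold lower. Lipid transfer proteins followed, with 20 of 67 lower and 4 higher. OsLTP1.12 averaged 17 and 390 CPM. Class III peroxidases, which act in the cell wall, had 38 of 91 members lower and 9 higher. The peroxidase gene PRX125 had no count on CIM, against 17.9, 23.0 and 40.5 CPM on N6, at least 126-fold lower, while prx91 averaged 24.8 CPM on CIM and 1.45 CPM on N6. Endoglucanases and xyloglucan-modifying enzymes (42 tested) had 11 lower and 5 higher members, with 3 higher without N6 replicate 2 or N6 replicate 3 and with limma. Germin-like proteins (26 tested) had 4 lower and 3 higher members, near the shares of all genes, with 2 lower without CIM replicate 1.

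Defense genes fell in part. Of 20 genes of diterpenoid phytoalexin synthesis, 14 were lower and 3 higher (0 or 1 without CIM replicate 3 or any N6 replicate), with a median log2 fold change of -2.37. CYP99A2, an enzyme of momilactone synthesis, had 3.14, 4.80 and 4.62 CPM on CIM, against 31.6, 71.2 and 51.3 CPM on N6 (log2 fold change -3.62, SE 0.68, edgeR adjusted p = 0.00026). OsKS4, the diterpene synthase of the same pathway, averaged 0.864 and 15.6 CPM. Replicate 1 was the lowest and replicate 2 the highest N6 library for both genes, and all N6 libraries lay above the CIM libraries, as for 28.5% of all genes tested. Of 47 jasmonate pathway genes, 12 were lower and 2 higher, with 4 or 5 higher without CIM replicate 1, CIM replicate 2, N6 replicate 1 or N6 replicate 3. The lower ones included the lipoxygenase gene Os03g0700700, named OsLOX1, at 14, 14.8 and 17.7 CPM on CIM, against 66.5, 86.0 and 71.7 CPM on N6. Another gene of that name, Os02g0194700, was one of the higher ones, with means of 2.27 CPM on CIM and 0.715 CPM on N6. Pathogenesis-related proteins and chitinases were divided, with 26 of 130 higher and 37 lower.

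The MCM genes were low in CIM replicates 1 and 3. The 10 MCM genes, which encode the replicative helicase and its relatives, summed to 58.1, 139 and 72.4 CPM on CIM, against 142, 116 and 146 CPM on N6, and 3 of the 10 were called lower. OsMCM2 had 1.92, 20.5 and 6.14 CPM on CIM, against 23.6, 18.4 and 25 CPM on N6, and did not pass the test (edgeR adjusted p = 0.098). CIM replicate 2 thus lay within the N6 range, and the other CIM libraries lay below it. Without CIM replicate 2, 8 of the 10 MCM genes were lower, OsMCM2 among them. Leaving out the same library also raised the counts of lower cyclins A, B and D (5 of 25, 10 without it), kinesins (8 of 42, 21 without it) and core histones (3 of 50, 13 without it). Other libraries moved these counts too. Without CIM replicate 3, or with only the compared groups in the fit, 1 MCM gene was lower. Without CIM replicate 1, CIM replicate 3, N6 replicate 1 or N6 replicate 2, 3 cyclins were lower. Lower core histones numbered 0 without CIM replicate 1 and 1 without N6 replicate 3. The kinesin sum was 530, 673 and 549 CPM on CIM, against 874, 816 and 801 CPM on N6, below N6 in all CIM libraries. The core histone sum was 1287, 1765 and 1538 CPM on CIM, against 1532, 1395 and 1507 CPM on N6, and the groups overlapped. None of 31 replicative polymerase and factor genes was higher by edgeR, at an unadjusted p under 0.05, by DESeq2 or by limma. Of these genes 9 were lower, with 5 lower without CIM replicate 1. With no minimum fold 4 were higher, and with only the compared groups in the fit 4 were lower. The 189 cytosolic ribosomal protein genes had a median log2 fold change of -0.59 and summed to 22396 to 25816 CPM on CIM, against 35920 to 39275 CPM on N6. Of these, 24 were lower and 4 higher, and with library totals 63 were lower and the 4 higher calls were lost.

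**Figure D4:**
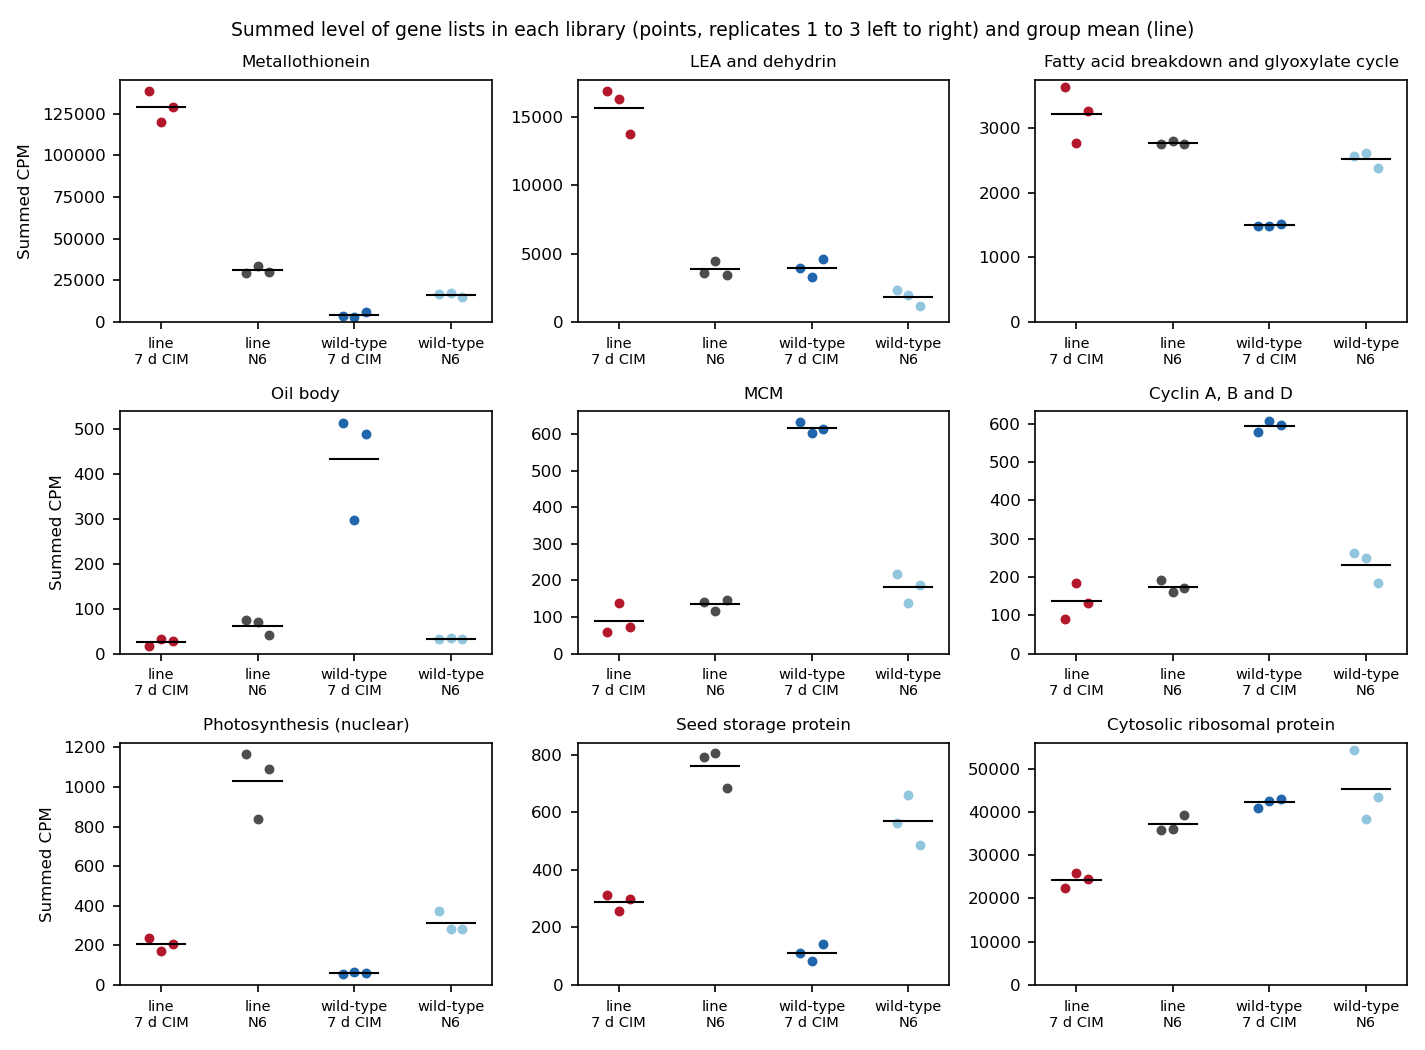
Summed CPM of the members of 9 gene lists in each library (points, replicates 1 to 3 from left to right) and group means (lines) for the line at 7 d on CIM, the line on N6, wild-type at 7 d on CIM and wild-type on N6. The sum of MCM genes in the line on CIM reaches 139 CPM in replicate 2 and stays at 58.1 and 72.4 CPM in the other libraries, below the wild-type CIM libraries.

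Among 30 genes that the study names for auxin signaling, embryo identity and root or callus formation, 5 were higher and 3 lower on CIM in the line. Many of these genes were taken up by the study from these samples, so the list's direction in wild-type, where 27 were higher, is not independent evidence. OsIAA4 was higher in each library of the line, at 5.57, 6.78 and 6.44 CPM on CIM, against 0.879, 0.5 and 1.17 CPM on N6. OsVP1, a regulator of embryo maturation, had 3.41, 6.68 and 6.86 CPM on CIM, against 52.8, 41.4 and 28.7 CPM on N6 (log2 fold change -2.86, SE 0.34, edgeR adjusted p = 2.3e-06). OsLEC1, a regulator of embryo identity, had 0.0554, 0 and 0.0736 CPM on CIM and no count on N6, at or under the floor, and wild-type scutella averaged 15 CPM on CIM. OsPLT5, an AP2-domain factor, had 0.332, 13.4 and 6.92 CPM on CIM and no count on N6. Its mean on CIM was at least 36.3-fold above the floor on N6. CIM replicate 1 lay near the floor of its own library (0.221 CPM), so this bound rests on CIM replicates 2 and 3. OsPLT2 had 0.923, 18.7 and 7.49 CPM on CIM, against 4.38, 0.894 and 4.40 CPM on N6, and was not called, except without CIM replicate 1. Of these genes, 19 had their highest CIM level in replicate 2. Without it, 2 of the 30 were higher and 5 lower, and without CIM replicate 1, 9 were higher. With only the compared groups in the fit, or with limma, 3 were higher.

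The change on CIM was then compared with that of wild-type, in which no library is shared. Of the 2972 genes higher in the line, 894 (30.1%) were higher in wild-type too, which is 21.1% of the 4232 genes higher there, and 489 (16.5%) were lower in wild-type. Of the 3705 genes lower in the line, 1260 (34.0%) were also lower in wild-type, 28.9% of the 4356 genes lower there, and 421 (11.4%) were higher. Over all genes tested, 14.2% were higher and 14.7% lower in wild-type, so the shares with opposite calls lay near or below those of all genes. The difference between the 2 changes was itself tested as an interaction, and it was called for 31.6% of all genes tested, with 4596 more positive and 4793 more negative in the line. It was called more positive for 1547 of the 2972 higher genes (52.1%) and not called for 1311 (44.1%). It was called more negative for 1826 of the 3705 lower genes (49.3%) and not called for 1639 (44.2%). Over all genes tested, the difference was more positive for 15.5% and more negative for 16.1%. The interaction holds the same change of the line by which these genes were picked. An excess in the same direction is therefore partly built in, and nothing is read from it.

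For some of the genes named above, the difference between the genotypes did not pass the test. Os06g0676700 averaged 62.0 and 2483 CPM in the line and 61.5 and 1917 CPM in wild-type, on CIM and N6 in that order, and the difference between the changes was -0.36 on the log2 scale (edgeR adjusted p = 0.38). Of the 20 diterpenoid genes, 14 were lower in wild-type, and the difference was called for 4. SUS4 averaged 303 CPM on CIM and 79.9 CPM on N6 in wild-type, and the difference was 0.16 (edgeR adjusted p = 0.53). A difference that does not pass the test does not show that the changes were equal.

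Other genes and lists changed differently in the 2 genotypes, some of them in opposite directions. Over all genes tested, the difference was called more positive in the line for 15.5% and more negative for 16.1%. OsMT3a averaged 577 CPM on CIM and 6477 CPM on N6 in wild-type, and the difference between the changes was 5.43 on the log2 scale (edgeR adjusted p = 1.9e-07). Of the 14 metallothionein genes, 8 were lower in wild-type and the difference was more positive in the line for 8. Oc2 averaged 5.73 CPM on CIM and 66.2 CPM on N6 in wild-type, a difference of 7.06, and OMTN3 averaged 2.56 and 11.2 CPM, a difference of 5.34. Seed storage genes were lower in both genotypes, 15 of 39 in the line and 32 of 39 in wild-type, and the difference was more positive in the line for 16. For MCM (7 of 10), replicative (23 of 31) and oil body genes (8 of 9), the change was called more negative in the line. In the line itself, 3, 9 and 4 members of these lists were called lower. In wild-type, 7, 22 and 8 were called higher. With library totals the median difference over all genes moved by -0.52, so that small differences between the genotypes depend on the scaling. The metallothionein, MCM, replicative and oil body counts with library totals were 8, 9, 26 and 8.

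Fewer genes were called between 7 d and 5 d than between 7 d and 2 d on CIM. In the line, 310 genes were higher at 7 d than at 5 d on CIM (1.04%) and 1793 lower (6.04%), whereas against 2 d on CIM 3074 were higher (10.3%) and 4310 lower (14.5%). With only the compared groups in the fit, 12 were higher and 74 lower at 7 d than at 5 d, and with library totals 175 were higher. These comparisons share the 7 d libraries. OsMT3a averaged 10570 CPM on N6 and 8748, 22406 and 40507 CPM at 2, 5 and 7 d on CIM, and the metallothionein share of counts was 4.76 to 8.37% at 5 d. OsASR5 averaged 0.273 CPM on N6 and 0.0925, 86.8 and 736 CPM at 2, 5 and 7 d on CIM, and its step between 5 d and 7 d was called (log2 fold change 3.08, edgeR adjusted p = 0.0076). Oc2 averaged 35.9, 22.7, 95.5 and 415 CPM over the same order. GH3-2 followed another course, with 40.8 CPM on N6 and 2301, 1583 and 1588 CPM at 2, 5 and 7 d on CIM. OsCel9A averaged 0 CPM on N6 and 3.11, 68.1 and 27.9 CPM on CIM, so its highest mean was at 5 d.

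Genes that fell did so at different times. OsHyPRP14 averaged 408 CPM on N6 and 776, 16.7 and 0.643 CPM at 2, 5 and 7 d on CIM. Os06g0676700 averaged 2483 CPM on N6 and 1851, 259 and 62.0 CPM on CIM. LHCB averaged 32.3 CPM on N6 and was down to 5.26 CPM at 2 d on CIM. Replicate 1 at 5 d stood apart from the other 5 d libraries. It was the lowest of them for OsMT3a, OsASR5, OsPAL03, Oc2, OsLEA24 and TRXH, with 19.8, 115 and 126 CPM of OsASR5 at 5 d, and the highest for OsLTP1.15, a lipid transfer protein, with 403, 86.3 and 15.5 CPM at 5 d and 1.70, 2.15 and 5.35 CPM at 7 d. Without that library, 116 genes were higher and 657 lower at 7 d than at 5 d.

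**Figure D5:**
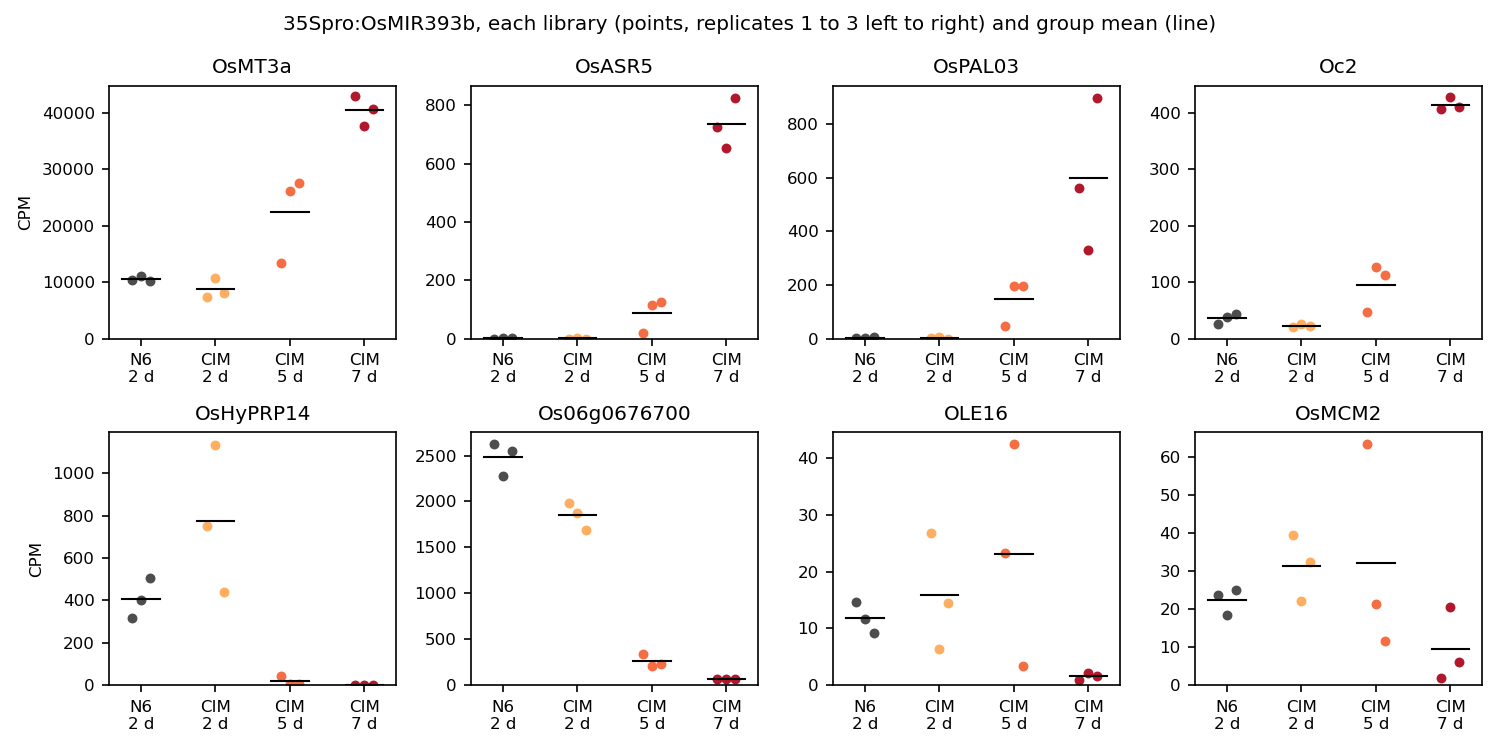
CPM of 8 genes in each library of the line (points, replicates 1 to 3 from left to right) and group means (lines) at 2 d on N6 and at 2, 5 and 7 d on CIM. OsMT3a, OsASR5, OsPAL03 and Oc2 are highest at 7 d on CIM, and OsHyPRP14, Os06g0676700, OLE16 and OsMCM2 are lowest there on average.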

How the data were processed

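RNA was sequenced from scutella on an Illumina HiSeq platform, and the libraries were grouped by their labels. Per the authors' methods and notes, Trimmomatic 0.36 trimmed the reads, HISAT2 2.1.0 placed them on IRGSP-1.0 and StringTie 1.3.4d assembled them, and UMI-tools is named for amplification noise; strand handling was not given in the sources used here. The table the authors deposited holds estimated counts from StringTie as whole numbers, in which 1 fragment is worth about 4 counts, and FPKM values with 0 written as 0.0001. Totals were 62487300 to 70426256 counts in the 6 libraries.

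Counts were fitted in edgeR 4.0.16 (R 4.3.3) with TMM factors, filterByExpr, 8 group means over all 24 libraries and the quasi-likelihood F-test. Calls needed a change of more than 2-fold and a test result under 0.05 after Benjamini-Hochberg adjustment. For its edgeR selection the study gave a p under 0.05 and named no adjustment. For its comparison with tissue-specific genes the study used an adjusted p from DESeq2 where replicates existed. Standard errors were worked back from the F statistic. Lists were built from words in the deposited gene descriptions. The exclusion words of the lists were edited after reading gene names and before any fit, and the comparison, the genes and the lists were chosen with earlier results of these data known. Named genes were the 12 highest and 12 lowest folds and the 10 largest gains and losses in mean CPM among called genes with non-overlapping libraries and a mean of at least 10 CPM, the 4 smallest p and 2 most counted members of each list, the 30 genes of the study, the 10 largest differences between genotypes in each direction and the 6 largest changes between 7 d and 5 d in each direction. OsMT4, OsMT2c, OsAPX1, Os02g0194700 and the totals of lists were added after their values were seen. Simulated counts for 27935 genes gave 43 of 50 genes recovered at a log2 fold change of 1.5, 38 of 50 at -1.5, 49 and 50 of 50 at 3 and -3, and 3 calls among 27735 unchanged genes. Changes were placed only in genes well counted on N6, and all other genes were equal in every group. Wide shifts in composition and an outlying library were not simulated, so these values are not error rates of the real comparison. Alternatives were library totals, RLE factors, no filter, counts divided by 4, unadjusted p, no minimum fold, only the groups compared, DESeq2 1.42.0, limma 3.58.1 on log2(FPKM + 0.1), a replicate block and leaving out each library. Figures were drawn with matplotlib 3.10.9.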

Additional observations from a re-analysis of the deposited data

Results flagged for a closer look

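The change between CIM and N6 differed between the line and wild-type at 7 d for 4596 genes in the positive direction and 4793 in the negative direction (edgeR interaction, adjusted p under 0.05 and an absolute log2 difference above 1). Of the 10 largest positive and the 10 largest negative differences among the named genes, 4 were of genes with more than 12 counts in every library of the line and wild-type at 7 d on CIM and on N6, and these are given here. The lipid transfer protein gene nsLTP2 had a difference of -8.77, with 2.55, 0.873 and 1.97 CPM on CIM against 16.8, 6.83 and 7.74 CPM on N6 in the line, and means of 124 CPM on CIM and 1.65 CPM on N6 in wild-type. Os03g0197300, annotated as similar to a cupin, had a difference of -8.51, with 4.58, 7.90 and 15.7 CPM on CIM against 48.1, 38.5 and 28.9 CPM on N6 in the line, and means of 1750 and 19.8 CPM in wild-type. The oleosin gene OLE16 had a difference of -8.01, with means of 1.51 and 11.8 CPM in the line and 132 and 3.99 CPM in wild-type. The small heat shock protein gene Os10g0159600 had a difference of 9.41, with means of 267 and 8.35 CPM in the line and 0.572 and 12.3 CPM in wild-type.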

How the results depend on the processing

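Of 100 alternative counts over all genes, 81 were within 1.5 times of those reported. Of 245 named genes called, 43 lost their call under at least one setting and 0 turned direction. With library totals, the genotype difference was positive for 2724 and negative for 8045 genes, and 175 genes were higher at 7 d than at 5 d. With an unadjusted p, 563 genes were higher and 2810 lower at 7 d than at 5 d. With no minimum fold, 6504 genes were higher and 6932 lower on CIM than on N6, 2179 and 3317 at 7 d than at 5 d, 6771 and 7488 at 7 d than at 2 d on CIM, and 7617 and 7785 on CIM than on N6 in wild-type. With only the compared groups in the fit, 12 genes were higher and 74 lower at 7 d than at 5 d. With limma on log2(FPKM + 0.1), 1854 genes were higher on CIM than on N6 and 1969 higher at 7 d than at 2 d on CIM, and the genotype difference was positive for 2561 and negative for 7935. The causes were not tested. Leaving out each library in turn gave 2641 to 2864 higher and 3064 to 4059 lower genes on CIM against N6, and 116 to 484 higher and 657 to 2427 lower genes at 7 d against 5 d, where the lowest counts came without 5 d replicate 1 and 143 and 951 without 7 d replicate 1. DESeq2 called 3190 higher and 3959 lower genes on CIM against N6.

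Replicate numbers did not pair the libraries, since the deviations of same-numbered CIM and N6 libraries correlated at -0.055, -0.090 and 0.073. With the replicate block, 2890 genes were higher and 3605 lower on CIM against N6, 302 and 1549 at 7 d against 5 d, 3007 and 4186 at 7 d against 2 d on CIM, 4124 and 4276 in wild-type, and the genotype difference was positive for 4515 and negative for 4664. The N6 group was sampled at 2 d only, so medium and time cannot be told apart. Genes below 12 counts in a library could not be ranked, and counts that share reads between near-identical genes limit single members of the metallothionein, amylase and lectin families.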
